A study of Mus musculus with 2 samples.

Results

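The genes described here are 10 transcriptional targets of p53, the DNA-damage and stress-responsive transcription factor encoded by Trp53. They are Cdkn1a, Mdm2, Ccng1, Bax, Bbc3, Pmaip1, Trp53inp1, Sesn2, Phlda3 and Eda2r, chosen by name, and all 10 were found among the 21896 gene symbols measured. RNA came from the VZ–SVZ (the ventricular zone with the subventricular zone, where cortical progenitors divide) of C57/BL6 mouse embryos at E13.5, with 1 library from Rcor2fl/fl embryos (the control) and 1 from Rcor2cko embryos. Both genotypes carry floxed Rcor2 alleles, and in Rcor2cko the Nestin promoter drives Cre recombinase in the neural lineage, where it removes the floxed exons of Rcor2, a co-repressor partner of the histone demethylase LSD1. The number of embryos behind each library is not given in the sources used here. The comparison asks whether p53 target transcripts differed between the control VZ–SVZ and the VZ–SVZ depleted of Rcor2.

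In unstressed cells p53 is held at a low level by Mdm2, a ubiquitin ligase that p53 itself induces. DNA damage, replication stress or prolonged mitosis frees p53 from this loop, and it then activates genes that arrest the cell cycle, repair DNA or start apoptosis through mitochondria. In the embryonic cortex, p53 activation in neural progenitors is a known route to progenitor death and a small brain. Several of its targets are also switched on by other factors, so that no single gene of this group reports p53 alone.

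p53 binds a 20-base element made of 2 half-sites of 10 bases, each around a core with the letters CNNG. The sequences nearest to this consensus are shown because binding to such elements is how p53 reaches its targets. A search for the p53 consensus element without spacer, allowing at most 2 mismatches outside the 4 fixed core bases, was made within 5000 bases of the annotated gene start on mm9. The element is palindromic, so that 1 search covers both strands, and elements with a spacer were not searched. Matches lay near 5 of the 10 genes, and near 9.99% of 19999 protein-coding genes. Matches with at most 1 mismatch lay near Cdkn1a and Ccng1, and near 1.71% of all these genes. The capitals mark the cores, each sequence reads in the direction of its gene, and the letters are those of the reference genome rather than of these libraries.

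Cdkn1a: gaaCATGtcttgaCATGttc
Ccng1 upstream: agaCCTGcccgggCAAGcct
Ccng1 intronic: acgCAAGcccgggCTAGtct
Bax: gggCAGGcccgggCTTGtcg
Eda2r: gggCAAGtccgggCCTGtgt

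Distances are from the outermost annotated start of each gene, and those to the starts of single transcripts were not computed. The Cdkn1a match, at chr17:29227873-29227892 on the plus strand, lay 42 bases upstream of the annotated start of the gene, which has 3 annotated transcripts. The first Ccng1 match, at chr11:40568964-40568983 on the minus strand, was 160 bases upstream, and the second, at chr11:40568438-40568457, was 366 bases downstream in an intron. The Bax match, at chr7:52721944-52721963 on the minus strand, was 315 bases downstream of the start in an annotated untranslated region. The Eda2r match, at chrX:94571873-94571892 on the minus strand, was 673 bases downstream in an intron. Pmaip1 also had a match, with 2 mismatches, which is not printed. These matches describe the sequence and were not tested for binding in these cells. No match was found near Mdm2, Bbc3, Trp53inp1, Sesn2 or Phlda3, which says only that these letters do not occur in the window searched.

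Levels are in FPKM, fragments scaled to transcript length and library size, so that they can be compared between genes. The bounds given with a level are the 95% FPKM interval of the authors' files. For genes with several transcripts, the control bounds were combined from the intervals of the transcripts. Differences are log2 ratios of (FPKM + 0.1), Rcor2cko over Rcor2fl/fl, which understate the change of genes with low FPKM. The scaling totals recovered from the steps in the FPKM values were 18841070 (control) and 25481460 (Rcor2cko) fragments. A level of 3 fragments corresponds to 0.0882 and 0.0654 FPKM for a transcript of 2000 nt. Exact intervals of the fragment ratio are given as well, without pseudocount, and their width reflects counting error alone. A single library per genotype allows no replicate check and no p-value, and each statement compares these 2 libraries rather than the genotypes. Rcor2 itself was at 90.6 FPKM in control and 55.7 FPKM in Rcor2cko (log2 change -0.70), over the whole gene and with the exons outside the LoxP sites included.

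With the pseudocount, none of the 10 p53 target genes differed by more than 1.5-fold between the libraries. Without it, Pmaip1 did, at a log2 change of 0.68. For comparison, 11777 genes reached 1 FPKM in either library, and of these 3.79% exceeded 1.5-fold upwards in Rcor2cko and 1.76% exceeded it downwards, with the pseudocount. At shares this low, finding none among 10 genes does not set the group apart from all genes. The log2 changes of the 10 genes ran from -0.31 for Sesn2 to 0.52 for Pmaip1, with a median of 0.04, beside a median of -0.03 over the 11777 genes. Of the 10 genes, 6 were higher and 4 lower in Rcor2cko. Over the 11777 genes, 57.6% were lower, and of those with a mean under 5 FPKM, 49.3% were. The 95% FPKM intervals of the 2 libraries overlapped for all 10 genes. Among the 11777 genes, 301 had intervals that did not overlap together with a change above 1.5-fold. Overlap in 10 genes thus does not set the group apart from all genes. The middle 90% of genes with a mean of at least 5 FPKM lay between -0.31 and 0.27, and that of genes under 5 FPKM between -0.57 and 0.88. Pmaip1 and Eda2r were under 1 FPKM in both libraries and are outside the 11777 genes, and Sesn2 reached 1 FPKM in control only.

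**Figure D1:**
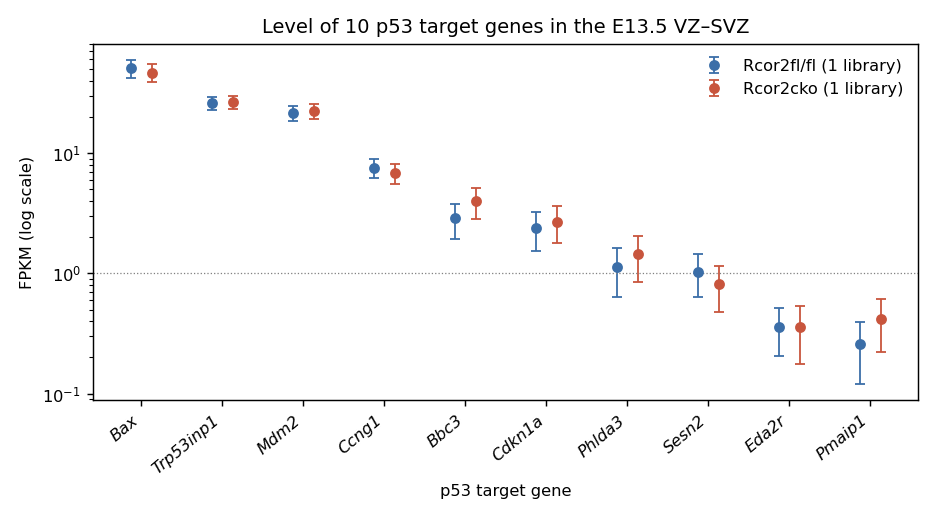
Level of the 10 p53 target genes in FPKM on a log axis, in order of the Rcor2fl/fl level, with the Rcor2fl/fl library in blue and the Rcor2cko library in red. Points are 1 library each, and the dotted line is 1 FPKM. Bars are the 95% FPKM intervals of the files, combined over transcripts in Rcor2fl/fl for genes with several. The bars of the 2 libraries overlap for every gene, from Bax at 50.8 and 46.7 FPKM down to Pmaip1 at 0.259 and 0.416 FPKM.

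The order of the levels was nearly the same in both libraries. Bax was the most abundant, at 44.6% of the summed FPKM of the 10 genes in control, followed by Trp53inp1, Mdm2 and Ccng1. Trp53inp1 and Mdm2 had overlapping FPKM intervals in each library, and so did Bbc3 and Cdkn1a, Cdkn1a and Phlda3, and Phlda3 and Sesn2. The lowest pair changed places, Eda2r being above Pmaip1 in control and below it in Rcor2cko, with overlapping intervals in both. Summed over the 10 genes, FPKM was 113.8 in control and 112.0 in Rcor2cko.

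Mdm2 is the feedback inhibitor of p53, and its second promoter is one of the best known p53 targets. The gene lies at chr10:117125944-117147814 on the minus strand. Mdm2 was at 21.5 FPKM (18.5 to 24.5) in control and 22.3 FPKM (19.2 to 25.4) in Rcor2cko. The log2 change was 0.05, and from 1146 and 1605 fragments the interval of the ratio ran from 0.959-fold to 1.12-fold. A rise of Mdm2 above 1.12-fold therefore lies outside the counting error of this pair. A value for the whole gene does not separate the p53-dependent promoter from the other one.

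Cdkn1a encodes p21, the inhibitor of cyclin-dependent kinases through which p53 arrests the cycle in G1. It lies at chr17:29227924-29237667 on the plus strand, and its upstream p53 match is the first sequence above. Cdkn1a was at 2.38 FPKM (1.55 to 3.22) in control and 2.69 FPKM (1.78 to 3.60) in Rcor2cko (log2 change 0.17). The Rcor2fl/fl fragments were all assigned to the 1910 nt transcript NM_007669, and NM_001111099 was listed at 0. How far the p53 match lies from the start of NM_007669 was not computed. At the length of NM_007669 the values correspond to 77 and 117 fragments, and the ratio to an interval from 0.836-fold to 1.52-fold. No difference in Cdkn1a was thus detectable at this depth, while rises above 1.52-fold lie outside the interval. Its relatives Cdkn1b (p27) and Cdkn1c (p57), which also inhibit cyclin-dependent kinases and restrain the cycle as progenitors differentiate, were far more abundant. Cdkn1b was at 56.2 and 62.5 FPKM and Cdkn1c at 20.8 and 23.5 FPKM, so that Cdkn1b exceeded Cdkn1a 23.6-fold in control and 23.3-fold in Rcor2cko.

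Ccng1 encodes cyclin G1, which works in the feedback between p53 and Mdm2. It lies at chr11:40562054-40568813 on the minus strand and has both an upstream and an intronic match to the p53 element. Ccng1 was at 7.54 FPKM (6.16 to 8.93) in control and 6.84 FPKM (5.54 to 8.15) in Rcor2cko. The log2 change was -0.14, and the interval from 468 and 573 fragments ran from 0.80-fold to 1.03-fold. No change lies inside this interval, which ends below a rise of 1.5-fold. Its paralogue Ccng2, which is under the control of FoxO factors, was at 53.7 and 58.2 FPKM (log2 change 0.11).

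Trp53inp1, a stress-induced protein that promotes p53 phosphorylation and autophagy, was at 26.0 FPKM (22.7 to 29.3) in control and 26.4 FPKM (23.1 to 29.7) in Rcor2cko. It lies at chr4:11083578-11101526 on the plus strand. The Rcor2fl/fl level was the sum of NM_021897 at 19.9 FPKM and NM_001199105 at 6.08 FPKM. The log2 change of 0.02 was among the smallest of the 10 genes, with an approximate interval from 0.965-fold to 1.07-fold. With 2547 and about 3499 fragments this was the best measured of the 10 genes. The related gene Trp53inp2 was at 38.9 and 30.4 FPKM (log2 change -0.36).

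Bax, Bbc3 and Pmaip1 carry the apoptotic arm of the response. Bax forms pores in the outer mitochondrial membrane, while Bbc3 (PUMA) and Pmaip1 (NOXA) are BH3-only proteins that neutralise the pro-survival members of the Bcl2 family. Bax lies at chr7:52717065-52722268 on the minus strand, and it was at 50.8 FPKM (42.4 to 59.2) in control and 46.7 FPKM (38.8 to 54.6) in Rcor2cko. Its log2 change was -0.12, with an interval from 0.819-fold to 1.01-fold from 646 and 795 fragments. The pore-forming relative Bak1 was at 6.46 and 5.34 FPKM, so that Bax exceeded it in both libraries. Bax stood at 1.62 times the level of pro-survival Bcl2l1 in control and 1.57 times in Rcor2cko.

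Bbc3 was the only one of the 10 genes whose exact fragment interval lay wholly above no change, and none had an interval wholly below it. Bbc3 lies at chr7:16894965-16903554 on the plus strand. It was at 2.86 FPKM (1.92 to 3.80) in control and 3.98 FPKM (2.81 to 5.15) in Rcor2cko (log2 change 0.46). From 96 and 180 fragments, the interval of the ratio ran from 1.08-fold to 1.80-fold. Such intervals are narrow beside the differences between these libraries. Among 9113 genes with at least 1 FPKM and recovered fragments, 13.3% had an interval above no change and 23.4% had one below it. An interval above no change in 1 of the 10 genes is thus near the share among all genes. The FPKM intervals of the files, which are wider, overlapped for Bbc3. Its log2 change ranked 980th in size among the 11777 genes.

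Pmaip1, on chromosome 18 from 66618258 to 66625204 on the plus strand, had the largest log2 change of the group, 0.52, and the lowest level in control. It was at 0.259 FPKM (0.120 to 0.398) in control and 0.416 FPKM (0.221 to 0.611) in Rcor2cko. These values rest on 12 and 26 fragments, and the interval of the ratio ran from 0.780-fold to 3.49-fold. Without the pseudocount the log2 change was 0.68, past 1.5-fold, so that its place relative to 1.5-fold depends on the pseudocount. Neither a decrease nor a doubling can be told apart from no change at this depth.

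The remaining genes act in metabolism and survival signalling. Sesn2 (sestrin 2) restrains mTORC1 and limits oxidative stress, and it is induced by ATF4 as well as by p53. It lies at chr4:132047947-132066416 on the minus strand. Sesn2 was at 1.04 FPKM (0.631 to 1.44) in control and 0.816 FPKM (0.481 to 1.15) in Rcor2cko (log2 change -0.31) from 48 and 51 fragments. The interval, from 0.519-fold to 1.19-fold, includes no change. The paralogue Sesn1, another p53 target, was at 23.7 and 27.8 FPKM, and Sesn3 at 11.0 and 8.50 FPKM, with log2 changes of 0.23 and -0.36. Sestrin transcripts in this tissue were thus mostly Sesn1, which exceeded Sesn2 22.9-fold in control and 34.1-fold in Rcor2cko.

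Phlda3 encodes a pleckstrin-homology protein that competes with Akt for membrane lipids and so dampens survival signalling. It lies at chr1:137662696-137665713 on the plus strand, and it was at 1.13 FPKM (0.633 to 1.62) in control and 1.46 FPKM (0.850 to 2.06) in Rcor2cko. The log2 change of 0.35 rests on 27 and 47 fragments, with an interval from 0.785-fold to 2.15-fold. Its relative Phlda1 was at 3.26 and 2.78 FPKM, while Phlda2 was at 0.0978 FPKM, from 1 fragment, in control and listed at 0 in Rcor2cko.

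Eda2r is a receptor of the TNF receptor superfamily for the A2 form of ectodysplasin. It lies on the X chromosome, at chrX:94529179-94572555 on the minus strand. Eda2r was at 0.360 FPKM (0.205 to 0.515) in control, of which 89.3% came from the transcript NM_175540, and at 0.357 FPKM (0.177 to 0.538) in Rcor2cko. The log2 change was -0.01, with an approximate interval from 0.597-fold to 1.66-fold from 29 and about 38.9 fragments. The ligand gene Eda was at 0.674 and 0.646 FPKM and the related receptor Edar at 0.0609 and 0.203 FPKM. The 2 libraries differed in X- and Y-linked transcripts, with Xist at 177 FPKM in control and 0.109 FPKM in Rcor2cko, and Ddx3y at 0.0239 and 8.10 FPKM. This pattern is that of female embryos in control and male embryos in Rcor2cko, so that sex differed along with genotype in every comparison here. The part of sex in the values of Eda2r and of the other genes was not tested.

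**Figure D2:**
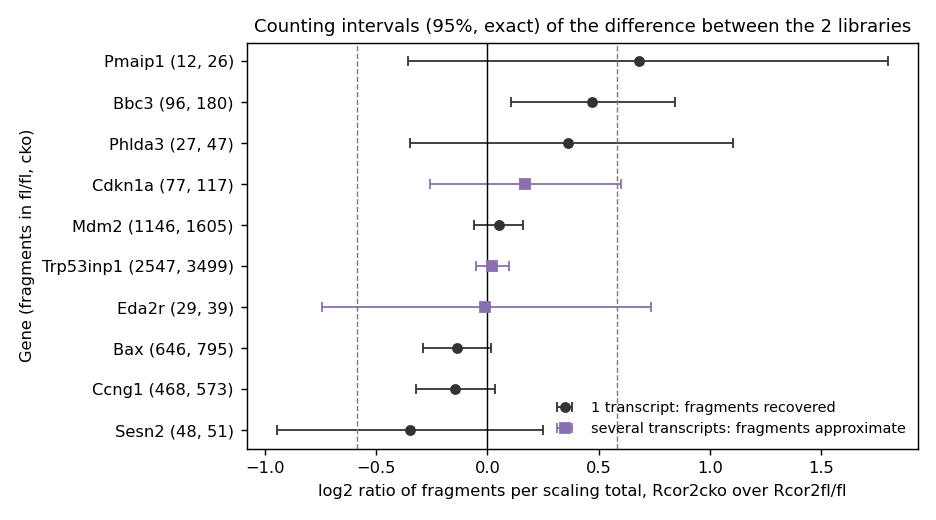
Log2 ratio of fragments per scaling total, Rcor2cko over Rcor2fl/fl, for the 10 genes, with 95% exact intervals that cover counting error only and the fragments of each library in brackets. Dashed lines mark 1.5-fold, circles are genes with 1 transcript and squares genes whose fragments are approximate; the interval of Bbc3, from 0.11 to 0.84, is the only one that does not include 0.

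**Figure D3:**
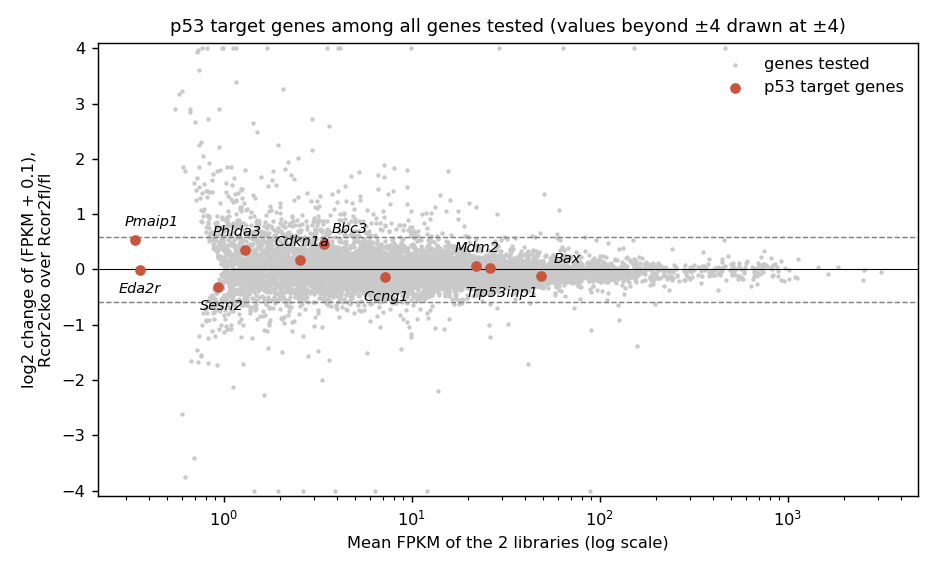
Log2 change of (FPKM + 0.1), Rcor2cko over Rcor2fl/fl, against the mean FPKM of the 2 libraries on a log axis, for the 11777 genes tested (grey) and the 10 p53 target genes (red). Dashed lines mark 1.5-fold; all 10 red points lie between them, within the cloud of genes of similar level or, for Pmaip1 and Eda2r, to the left of it at a mean of 0.338 and 0.359 FPKM.

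Of the genes that control p53, Trp53 itself was at 44.1 FPKM (38.0 to 50.2) in control and 36.8 FPKM (31.3 to 42.2) in Rcor2cko (log2 change -0.26). Its approximate fragment interval, from -0.38 to -0.16 on the log2 scale, lay below no change, while its FPKM intervals overlapped. Trp53 overlaps the antisense gene Wrap53, and whether fragments were counted by strand is not given in the sources used here. Mdm4, which binds p53 and blocks its activity, was at 27.4 and 28.0 FPKM (log2 change 0.04). Mdm2 stood at 0.487 times the level of Trp53 in control and 0.606 times in Rcor2cko. A list of 21 p53 regulators, which holds Trp53 and Mdm4 with the damage kinases and cofactors, had a median log2 change of -0.09, and 19 of its genes were lower in Rcor2cko. Over the 11777 genes tested, 57.6% were lower. Kdm1a, which encodes LSD1 and was the most abundant gene of the list, was at 83.7 and 81.1 FPKM (log2 change -0.05).

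The p53 family members Trp63 and Trp73 recognise similar elements. Trp63 was at 0.0947 and 0.0714 FPKM, from about 8 fragments in each library. Trp73 went from 4.05 FPKM (3.09 to 5.02) in control to 1.95 FPKM in Rcor2cko (log2 change -1.02), and it was the only regulator with at least 1 FPKM past 1.5-fold. Trp73 is also a marker of Cajal-Retzius cells, the early-born reelin-secreting neurons of the cortical surface and hem. All 5 markers of these cells and of the hem, of which Wnt3a was under 1 FPKM in both libraries, were more than 1.5-fold lower, with a summed level of 44.4 FPKM in control and 18.7 FPKM in Rcor2cko. Over all genes tested, 1.76% were more than 1.5-fold lower. Wnt3a was listed at 0 in Rcor2cko, and the other markers had log2 changes from -1.56 (Calb2) to -0.74 (Ndnf). Calb2 encodes calretinin, which the study also used as an interneuron marker. The study reported enriched calretinin staining in Rcor2cko dorsal cortex, which is protein at a later stage than here. The part of Cajal-Retzius cells in the value of Trp73 was not tested. In tissue RNA, fewer cells of a type cannot be told apart from less RNA per cell.

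A wider list of 35 other p53 targets, among them Zmat3, Gadd45a, Fas and Rrm2b, was measured as well. With the pseudocount, none was more than 1.5-fold higher or lower, whether or not it reached 1 FPKM, which 26 did. Over all genes tested, 3.79% were more than 1.5-fold higher and 1.76% lower. At shares this low, finding none among 26 genes does not set the list apart from all genes. Fas, listed at 0 FPKM in control and 0.0305 FPKM in Rcor2cko, has no ratio without the pseudocount. The log2 changes ran from -0.45 to 0.46 with a median of -0.04, and 15 genes were higher and 20 lower in Rcor2cko, where 57.6% of all genes tested were lower. Rps27l, a ribosomal protein paralogue and the most abundant of them, was at 75.4 and 78.3 FPKM. Among the 10 genes of the cell cycle that p21 represses through the DREAM complex, none passed 1.5-fold, beside the same 3.79% and 1.76%. All 10 were lower in Rcor2cko. Of all genes with a mean of at least 5 FPKM, which these 10 also had, 60.8% were lower. Their median log2 change was -0.17, and the lowest was that of the mitotic kinase Plk1 (singled out after its value was seen), at -0.44, from 18.2 to 13.4 FPKM. Ccnb1, the most abundant of them, was at 36.2 and 32.3 FPKM.

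Of 23 genes of the apoptosis machinery, 11 were higher and 12 lower in Rcor2cko, with a median log2 change of -0.02. Hrk, a neuronal BH3-only gene, was the only one with at least 1 FPKM past 1.5-fold, and it was lower, at 1.21 and 0.692 FPKM (log2 change -0.73). Over all genes tested, 3.79% were more than 1.5-fold higher and 1.76% lower. Of 20 genes of the list with recovered fragments, 4 had a counting interval above no change and 5 below it, beside 13.3% and 23.4% among all genes. Of these, Bid and Casp9 were singled out after their values were seen. Bid, a BH3-only gene that links death receptors to mitochondria, was at 3.35 and 4.83 FPKM (log2 change 0.52, counting interval from 0.18 to 0.87). Casp9 was lower, at 8.77 and 6.79 FPKM (log2 change -0.37, counting interval from -0.54 to -0.21). The FPKM intervals overlapped for both. The pro-survival genes Bcl2l1 and Mcl1 had log2 changes of -0.08 and -0.02.

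**Figure D4:**
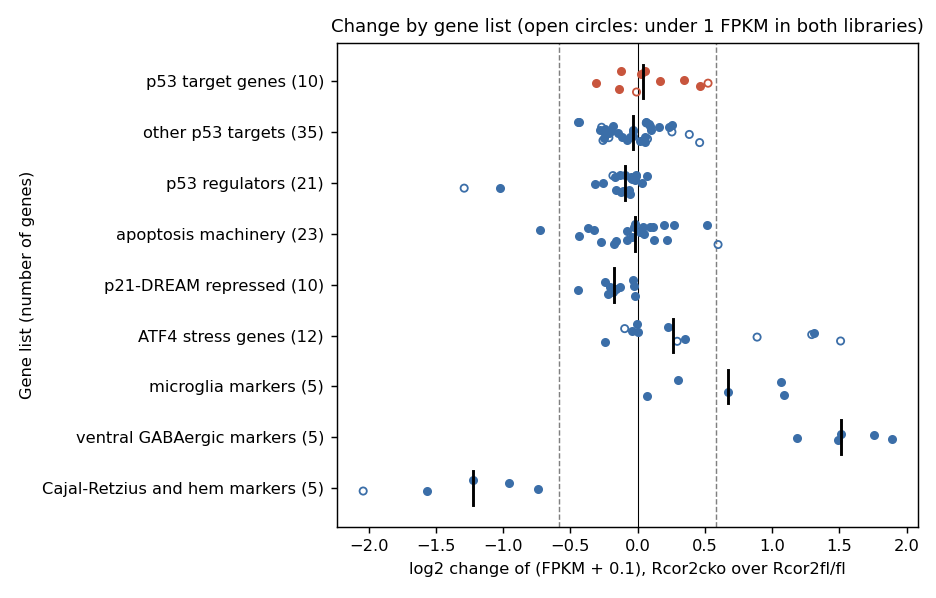
Log2 change of (FPKM + 0.1), Rcor2cko over Rcor2fl/fl, of each gene in 9 lists, with the number of genes in brackets, the median as a black bar and 1.5-fold as dashed lines. The p53 target genes (red) and the 35 other p53 targets lie within 1.5-fold, with medians of 0.04 and -0.04, while the ventral GABAergic markers have a median of 1.51 and the Cajal-Retzius and hem markers one of -1.22.

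The tissue label was checked against its markers. The 9 radial glia markers were abundant in both libraries, with a summed level of 938 FPKM in control and 1070 FPKM in Rcor2cko. The higher sum came from Fabp7, a fatty acid binding protein gene, at 372 and 539 FPKM. Of the 9 markers, 6 were lower in Rcor2cko, with a median log2 change of -0.13, and Emx2, a transcription factor gene of the dorsal telencephalon, was past 1.5-fold lower, at 21.5 and 13.9 FPKM. The 3 intermediate progenitor markers summed to 212 and 202 FPKM. Of the 5 neuron markers, 3 were higher and 2 lower in Rcor2cko, with a median log2 change of 0.02. They summed to 1246 and 1208 FPKM, above the radial glia markers in each library. Among them Neurod6, a gene of postmitotic cortical neurons, was at 399 and 386 FPKM. The 5 markers of ventral GABAergic cells were all more than 1.5-fold higher in Rcor2cko, summing to 17.1 and 50.5 FPKM, as were 6 of 7 choroid plexus markers, summing to 1.04 and 62.9 FPKM, of which Ttr made up most. Of these 6, Folr1, Otx2 and Clic6 were under 1 FPKM in both libraries, and Ttr, Aqp1 and Kcne2 reached 1 FPKM in Rcor2cko only. Over all genes tested, 3.79% were more than 1.5-fold higher. Of 5 microglia markers, 3 were more than 1.5-fold higher (Csf1r, P2ry12 and Tyrobp), and the sums were 9.40 and 15.7 FPKM. The 4 endothelial markers summed to 24.7 and 26.2 FPKM, and the 5 erythroid markers to 239 and 174 FPKM. Of the erythroid markers, 1 was more than 1.5-fold lower, Hbb-b1, at 153 and 97.5 FPKM. Over all genes tested, 1.76% were more than 1.5-fold lower. The 4 markers of meninges and mesenchyme were under 1 FPKM in each library. Of these, 1 was more than 1.5-fold higher and 1 lower, and no share of all genes is given at that level. The part of the cell types listed here in the values of the p53 target genes was not tested.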

How the data were processed

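RNA from the E13.5 VZ–SVZ of 1 Rcor2fl/fl and 1 Rcor2cko library was analysed. The authors used RNeasy columns and a KAPA stranded mRNA kit. The submitters' processing notes name TopHat 1.3.3 and Cufflinks 1.2.0 with mm9, while the methods of the study name another TopHat version. The authors deposited FPKM values with 95% intervals, 1 row per RefSeq transcript (27641 rows) for Rcor2fl/fl and 1 per gene (21896 rows) for Rcor2cko. Use of strand in counting is not given in the sources used here.

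Transcript rows were summed per gene. The half-widths of their intervals were squared, added and square-rooted, which treats the transcripts as independent. Fold changes were taken on FPKM + 0.1 with no further normalization, and genes with at least 1 FPKM in 1 library were counted past 1.5-fold. Where a gene had a single transcript, at least 500 nt long, FPKM times (length minus 194.1 nt or 200.9 nt, fitted per library) fell on whole multiples of 1 fragment. Of the values up to 100 fragments, 99.3% of 4455 and 99.5% of 4387 lay within 0.1 of a whole number. For Cdkn1a, Trp53inp1, Eda2r, Trp53, Trp63 and Trp73, with several transcripts, the Rcor2cko fragments are approximate, using the mean length in the Rcor2fl/fl library. Exact (Clopper-Pearson) 95% intervals of fragment ratios were computed, and the steps were tested on simulated data.

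Positions and sequences are from NCBIM37 (mm9) with GENCODE vM1, whose genes overlapped the locus in the files for 99.2% of 19999 symbols. Of 172 listed gene entries, 169 matched by symbol and 3 by a RefSeq synonym. The members and lists were chosen with earlier results of these data known. Named genes were the members and their paralogues, Rcor2, Trp53, Mdm4, Trp63 and Trp73, and from each list the genes with at least 1 FPKM past 1.5-fold (at most 3 in each direction) and the most abundant one, of which 1 is not reported here. The others are given as examples. Python 3.11.15, numpy 2.4.6, pandas 2.3.3, scipy 1.17.1, pysam 0.24.0 and matplotlib 3.10.9 were used. Alternatives were 14 settings of pseudocount, scaling, filter, threshold and row choice, and 2 chosen after seeing the data.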

Additional observations from a re-analysis of the deposited data

How the results depend on the processing

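The count of p53 target genes more than 1.5-fold higher went from 0 to 1, Pmaip1 being the gene, with a pseudocount of 0.01, without pseudocount, with the fragment ratio of the 7 genes with 1 transcript and, as chosen after seeing the data, with the fragment ratio of all 10 genes. By construction these settings remove or shrink the constant added to a level under 1 FPKM. It was 0 under the other settings, and the count of genes lower was 0 under all that were run. The median log2 change of the group lay between -0.05 (at least 5 FPKM in at least 1 library, with 4 genes left) and 0.14 (highest row per gene). Of 126 recomputed log2 changes, 125 lay within the gene's counting interval. The exception was Trp53inp1 at 0.41 with the highest row per gene, which drops a transcript from the Rcor2fl/fl library only. This tally was partly fixed in advance and is no measure of robustness. The filters leave the value of a kept gene unchanged, as does the highest row for a gene with 1 transcript. The fragment ratio is the estimate on which the counting interval itself is built. Median, total, upper-quartile and quantile scaling changed the sign of none of the 10 genes except Eda2r, which lay between -0.14 and 0.12 over all settings. No paired analysis was possible because each genotype has 1 library, and for the same reason no library could be left out. Depth limits Pmaip1, Eda2r, Phlda3 and Sesn2 most, with 12 to 51 fragments.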

Other observations

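Sesn2, Bbc3 and Pmaip1 are also known targets of the integrated stress response, in which ATF4 is translated when protein synthesis is slowed. Of 12 genes of this response, 7 reached 1 FPKM, and their median log2 change was -0.0003. Of these 7, 1 exceeded 1.5-fold upwards in Rcor2cko and none downwards, beside 3.79% and 1.76% of all genes tested. It was Chac1, a glutathione-degrading enzyme, which reached 1 FPKM in Rcor2cko only. Over all 12 genes the median was 0.26 and 4 exceeded 1.5-fold upwards, and no share of all genes is given for those under 1 FPKM. Chac1 was at 0.425 and 1.21 FPKM, from 11 and 42 fragments (log2 change 1.31). The exact interval of its fragment ratio ran from 0.51 to 2.60 (log2). The other 3 of the 4, singled out after their values were seen, were Slc7a11, Trib3 and Nupr1. The cystine transporter gene Slc7a11 was at 0.0294 and 0.217 FPKM, from 5 and 50 fragments (log2 change 1.29). Its fragment ratio had an exact interval from 1.57 to 4.57 (log2), above no change, and its FPKM intervals did not overlap. Trib3 was at 2 and 9 fragments and Nupr1 at 0 and 2 fragments, so that counting error covers no change for both. The abundant genes of the list were within 1.5-fold. Atf4 was at 62.7 and 61.0 FPKM, Ddit3 at 10.4 FPKM in each library, and Psat1 at 58.1 and 49.1 FPKM. Ddit4, an inhibitor of mTORC1, was at 38.9 and 49.8 FPKM (log2 change 0.35).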
